A study of Homo sapiens with 9 samples.

Results

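The 10 genes described here encode the DNA-binding subunits of the transcription factor AP-1, namely FOS, FOSB, FOSL1, FOSL2, JUN, JUNB and JUND, together with ATF3, EGR1 and MYC, further early-response factors that growth signals induce. They were taken by gene symbol from a count table of 51796 genes, all 10 were matched, and all 10 had enough reads to be among the 14582 genes tested. RNA was measured in A549 cells, an established human lung adenocarcinoma line, that stably carried a short hairpin RNA under puromycin selection at 1 µg/ml. The 9 libraries formed 3 groups of 3 biological replicates: a hairpin against GFP as control, a hairpin against the arginine methyltransferase PRMT5, and a hairpin against its WD-repeat partner MEP50, the product of WDR77. All groups shared the line, the puromycin and RPMI medium with 10% FBS, and the labels name no added growth factor. The title of the study places PRMT5 and MEP50 in TGF-beta signalling, invasion and histone arginine methylation, and the design sets each knockdown against the GFP control. Each group rests on a single cell line, and no sequence of a hairpin is given in the labels.

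AP-1 binds DNA as a dimer. JUN proteins pair with each other or with FOS proteins, whereas FOS proteins need a JUN partner. FOS, FOSB, JUN, JUNB, ATF3 and EGR1 are immediate early genes, whose transcription starts within minutes of a stimulus without new protein synthesis and whose messages decay quickly. FOS and EGR1 are switched on by serum response factor with its ternary complex partners downstream of the ERK kinases, and the JUN promoter carries sites that bind JUN and ATF2 dimers phosphorylated by the JNK and p38 kinases. FOSL1 (FRA-1) and FOSL2 (FRA-2) accumulate more slowly, lack the strong activation domain of FOS, and are the FOS proteins most often tied to mesenchymal traits and invasion in epithelial tumours. JUNB and JUND often restrain proliferation where JUN drives it. ATF3 is a stress-induced factor, EGR1 a zinc finger factor, and MYC the dimer partner of MAX that controls growth and ribosome production.

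The promoter windows of these genes differ in the elements they hold, and 5 are shown because their genes carry most of the changes described or the best known early-response elements. The windows run from 220 bases before the transcription start to 30 bases from it, in RefSeq on GRCh38.p14, and were matched by symbol for 8 of the 10 genes. Capitals mark matches to the AP-1 element TGACTCA, the JUN and ATF element TGACATCA, the TATA element TATAAA, or the CArG box that binds serum response factor.
JUN: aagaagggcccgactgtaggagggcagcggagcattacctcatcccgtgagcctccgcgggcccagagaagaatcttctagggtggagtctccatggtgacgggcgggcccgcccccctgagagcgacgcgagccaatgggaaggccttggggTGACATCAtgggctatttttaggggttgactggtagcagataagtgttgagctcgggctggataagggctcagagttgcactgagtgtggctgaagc
FOSL2: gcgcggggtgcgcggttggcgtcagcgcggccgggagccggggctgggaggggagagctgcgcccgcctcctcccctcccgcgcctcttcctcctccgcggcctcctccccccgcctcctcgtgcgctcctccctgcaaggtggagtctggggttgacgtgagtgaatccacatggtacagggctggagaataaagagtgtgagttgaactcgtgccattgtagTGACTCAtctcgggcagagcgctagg
FOS: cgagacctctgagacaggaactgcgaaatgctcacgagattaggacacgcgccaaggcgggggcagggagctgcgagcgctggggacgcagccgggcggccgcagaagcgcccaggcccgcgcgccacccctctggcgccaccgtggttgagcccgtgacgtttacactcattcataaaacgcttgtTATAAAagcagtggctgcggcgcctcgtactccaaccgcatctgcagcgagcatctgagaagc
JUNB: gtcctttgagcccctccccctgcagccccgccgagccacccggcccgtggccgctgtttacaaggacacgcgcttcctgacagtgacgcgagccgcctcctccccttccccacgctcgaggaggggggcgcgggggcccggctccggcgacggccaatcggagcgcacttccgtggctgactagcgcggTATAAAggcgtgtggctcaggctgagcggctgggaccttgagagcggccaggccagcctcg
EGR1: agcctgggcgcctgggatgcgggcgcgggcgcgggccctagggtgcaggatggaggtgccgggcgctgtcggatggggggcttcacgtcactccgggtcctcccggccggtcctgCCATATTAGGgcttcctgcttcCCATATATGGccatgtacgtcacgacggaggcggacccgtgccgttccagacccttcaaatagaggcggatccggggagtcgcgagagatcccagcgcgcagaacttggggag

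The JUN window (chr1:58784018-58784267, minus strand) held TGACATCA at -67 to -60, counted from 1 at the first transcribed base. The FOSL2 window (chr2:28392638-28392887, plus strand) held TGACTCA at 5 to 11, just inside the transcript. In the FOS window (chr14:75278608-75278857, plus strand) TATAAA lay at -33 to -28, and in the JUNB window (chr19:12791266-12791515, plus strand) at -31 to -26. The EGR1 window (chr5:138465259-138465508, plus strand) carried CArG boxes at -105 to -96 and at -83 to -74. Among the windows not printed, JUND held TGACGTCA, the cyclic AMP response element, at -200 to -193, one of the ATF3 starts held TGACATCA at -123 to -116, and FOSB held TATAAA at -30 to -25. Of 35116 promoter windows of this length, 4.37% held TGACTCA, 2.45% TGACATCA, 1.79% TGACGTCA, 1.13% a CArG box and 6.41% TATAAA. Both strands were searched, except for TATAAA, which was searched on the coding strand. None of the fixed motifs TGACTCA, TGACATCA, TGACGTCA and TATAAA contains another, whereas the CArG box varies in sequence. The counts were made on hg19, so these windows locate the genes and were not measured in this study.

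The libraries held 20806181 to 31586128 reads on genes. Levels are in CPM, reads scaled to a library's total after adjustment by edgeR's TMM factors. PRMT5 RNA was at 205 to 212 CPM in the control, 67.5 to 70.1 in its own knockdown and 200 to 211 in the MEP50 knockdown. WDR77 was at 39.2 to 39.6 CPM in the control and 10.7 to 13.6 in the MEP50 knockdown, so the labels matched both targets. Of 8 markers set for the line, KRT8, KRT18 and CDH1 were well detected, while EPCAM, KRT19, NKX2-1, SFTPB and SFTPC had 0 to 7 reads per library. The summed level of these 8 markers was 6342 to 6573 CPM in the control, 4150 to 4311 with PRMT5 knocked down and 3866 to 4142 with MEP50 knocked down, and the part of this in the results below was not tested. KRT8 and KRT18 fell in both knockdowns (log2 changes of -0.63 and -0.61, then -0.74 and -0.67). CDH1 was at 38.5 to 41.7, 32.3 to 37.1 and 66.4 to 83.1 CPM in the same order. Of 14 blood, endothelial and fibroblast markers, CD3E and HBB were at 0 reads, PTPRC, CDH5, KDR and DCN had at most 1 read per library, CD14, COL1A2 and PDGFRB had at most 5, and CD68, COL1A1, LUM and ACTA2 were detected. Their summed level was 37.7 to 38.0 CPM in the control, 40.6 to 46.2 in the PRMT5 knockdown and 63.9 to 73.2 in the MEP50 knockdown, and its part was not tested. The 4 detected genes did not all move alike, since LUM fell from 5.17 ± 0.646 to 0.629 ± 0.240 CPM with PRMT5 knocked down (SD, n = 3, log2 change -3.06, edgeR adjusted p = 2.01e-15), CD68 and COL1A1 rose there (0.56 and 0.59), and all 4 rose with MEP50 knocked down. Reads that HTSeq placed on no annotated feature made up 11.9 to 12.4%, 13.7 to 14.5% and 12.3 to 13.8% of counted reads in the same order. Mitochondrial genes took 1.30 to 1.81%, 1.27 to 1.60% and 1.02 to 1.08% of reads on genes, lowest in the MEP50 knockdown, and the part of neither share was tested.

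In PRMT5 knockdown cells the AP-1 genes changed in opposite directions. FOSL2, JUN and FOSL1 rose, FOS, JUND and JUNB fell, and FOSB, ATF3, EGR1 and MYC did not pass the test. FOS fell by 1.10 on the log2 scale, FOSL2 rose by 1.21 and JUN by 1.19, so these 3 changed at least 2-fold. A gene was called at a Benjamini-Hochberg adjusted p below 0.05 in edgeR's quasi-likelihood test over all genes. The 6 of 10 members called compare with 51.0% of all genes tested, the 3 higher with 26.1%, the 3 lower with 24.9%, and the 3 with at least 2-fold changes with 7.25%. In MEP50 knockdown cells FOSL2, JUNB, JUN and FOSL1 rose and FOS, EGR1, ATF3, MYC and JUND fell, leaving FOSB not called. Those 9 of 10 compare with 51.7% of all genes, the 4 higher with 26.5%, the 5 lower with 25.2%, and the 1 with at least a 2-fold change, FOSL2, with 7.51%. The median log2 change of the 10 genes was -0.13 for PRMT5 knockdown and -0.24 for MEP50 knockdown, beside 0.0032 and -0.0019 over all genes tested. Both knockdowns were measured against the same control libraries. In bulk RNA, fewer cells that express a gene and less RNA per cell cannot be told apart.

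**Figure D1:**
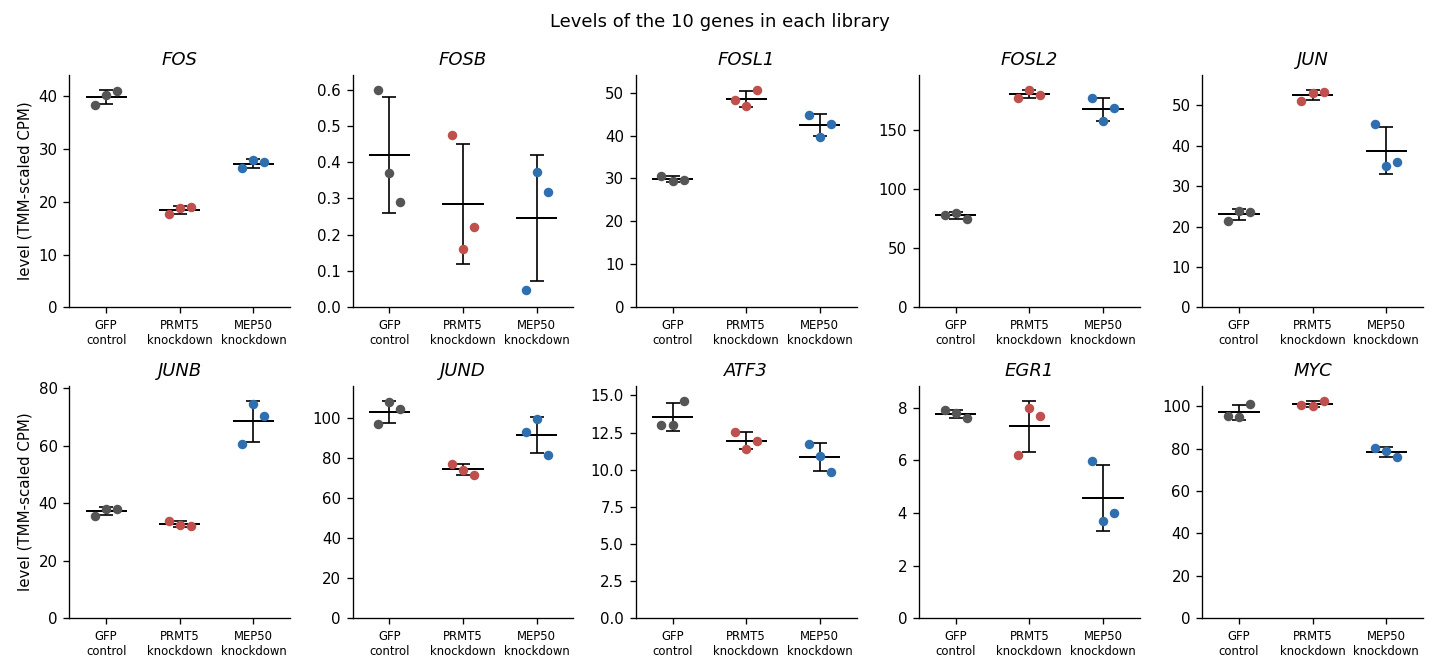
Level of each of the 10 genes in CPM (linear axes that start at 0, scaled to each gene), with 1 point per library and the mean and SD of the 3 libraries of each group (GFP control, PRMT5 knockdown, MEP50 knockdown). FOS is below the control in all 6 knockdown libraries and FOSL2, FOSL1 and JUN are above it, JUNB is high in the MEP50 knockdown alone, and FOSB lies below 1 CPM throughout.

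FOS, the founding and most transient member of its family, was at 38.3, 40.2 and 41.0 CPM in the control libraries. It was at 17.6, 18.9 and 19.0 CPM in the PRMT5 knockdown and at 26.4, 27.9 and 27.5 CPM in the MEP50 knockdown. No library of any group overlapped another group, and the MEP50 knockdown lay between the others. The fall in log2 CPM was 1.10 ± 0.0653 (SE from the fit of all 9 libraries, edgeR adjusted p = 7.27e-18) in the PRMT5 knockdown. In the MEP50 knockdown the log2 change was -0.55 ± 0.0642 (edgeR adjusted p = 1.84e-09). 

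FOSL2 more than doubled in each knockdown. Its control libraries were at 78.0, 79.9 and 74.7 CPM, the PRMT5 knockdown at 177, 183 and 179 CPM, and the MEP50 knockdown at 176, 157 and 168 CPM. All 6 knockdown libraries lay above 2 times the control mean, and the highest MEP50 library came within 1 CPM of the lowest PRMT5 library. The log2 changes were 1.21 ± 0.0386 (edgeR adjusted p = 6.22e-27) and 1.11 ± 0.0391 (edgeR adjusted p = 2.81e-25).

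FOSL1, the other FOS protein without the strong activation domain, was at 30.6, 29.5 and 29.6 CPM in the control. It reached 48.3, 46.8 and 50.6 CPM in the PRMT5 knockdown and 44.8, 39.7 and 42.6 CPM in the MEP50 knockdown, and no library overlapped another group. Its log2 change was 0.70 ± 0.0577 (edgeR adjusted p = 1.74e-13) after PRMT5 knockdown and 0.50 ± 0.0595 (edgeR adjusted p = 2.08e-09) after MEP50 knockdown. FOSB, which encodes an immediate early FOS protein with a truncated splice form, was close to undetected, with 8 to 15 reads per library in control cells, 5 to 12 with PRMT5 knocked down and 1 to 9 with MEP50 knocked down. Its log2 changes of -0.58 ± 0.53 (edgeR adjusted p = 0.379) and -0.70 ± 0.562 (edgeR adjusted p = 0.312) were not distinguishable from no change at this depth. FOSB also overlaps ERCC1, a far more abundant gene on the opposite strand (70.9 ± 2.19 CPM in the control, SD, n = 3).

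With FOS lower and FOSL1 and FOSL2 higher in both knockdowns, the makeup of the FOS family message was compared. Levels were divided by the merged exon length of each gene so that genes could be set beside each other. Summed over the 4 FOS genes, the level was 39.1 ± 0.220 CPM per kb in control cells, 56.6 ± 1.01 with PRMT5 knocked down and 54.3 ± 2.46 with MEP50 knocked down (SD, n = 3), or 1.45-fold and 1.39-fold the control. FOS made up 31.5 ± 1.16% of this sum in control cells, 10.1 ± 0.318% with PRMT5 knocked down and 15.5 ± 1.12% with MEP50 knocked down. FOSL2 made up 27.7 ± 0.778%, 44.4 ± 1.06% and 43.0 ± 0.549% in the same order. FOSL1 held 40.6 ± 0.908%, 45.4 ± 1.21% and 41.4 ± 0.633%, and FOSB 0.193%, 0.0910% and 0.0834%. Per kb, the order in the control was FOSL1, FOS, FOSL2, and in both knockdowns FOS was the third, with FOSL1 and FOSL2 close together ahead of it. Not divided by length, FOSL2 was first in the control (77.5 CPM, against 39.8 for FOS and 29.9 for FOSL1). The control order and the sums thus depend on the lengths used. With 3 against 3 libraries the exact permutation test (two-sided) cannot give a p below 0.1, and it gave 0.1 for the FOS and FOSL2 shares in both knockdowns, where the libraries did not overlap. For FOSL1 it gave 0.1 for PRMT5 knockdown and 0.3 for MEP50 knockdown. Without division by length the FOSL1 difference changed sign, from 4.86 to -0.602 percentage points in the PRMT5 knockdown and from 0.783 to -2.38 in the MEP50 knockdown, so the direction of its share depends on the length used. The ratio of FOSL2 to FOS reads, which needs no length to be compared between groups, was 1.95 ± 0.111 in control cells, 9.72 ± 0.294 with PRMT5 knocked down and 6.14 ± 0.525 with MEP50 knocked down (SD, n = 3).

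**Figure D2:**
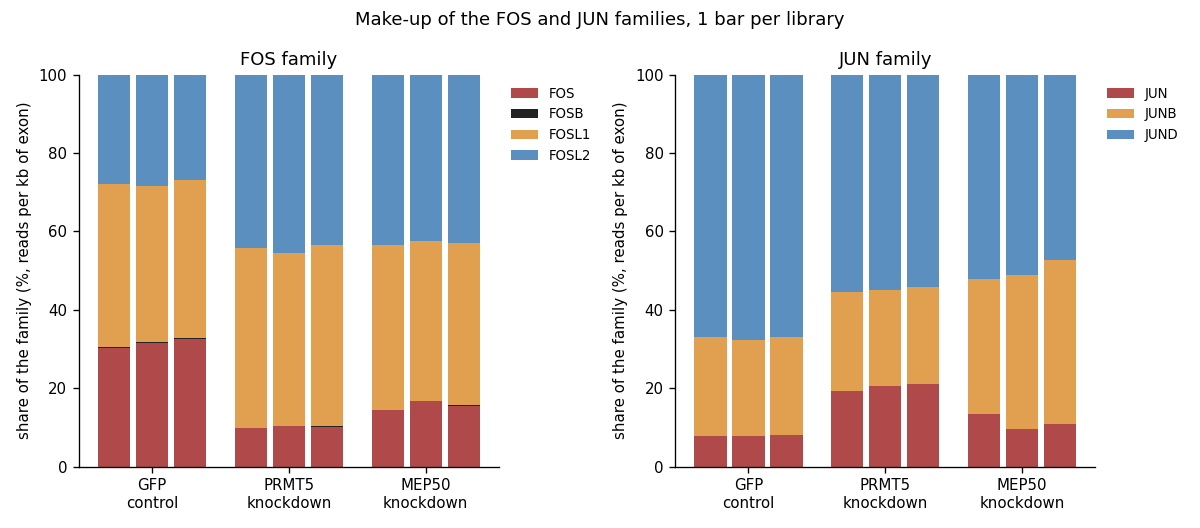
Share of the summed FOS family level (left) and JUN family level (right) from each gene, in percent of CPM per kb of merged exons, stacked in 1 bar per library. The mean FOS share is 31.5%, 10.1% and 15.5% in the 3 groups, and within the JUN family the larger gain over the control is that of JUN in the PRMT5 knockdown and of JUNB in the MEP50 knockdown.

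JUN, the strongest activator of its family and often a driver of proliferation, was at 21.3, 24.0 and 23.7 CPM in the control. It was at 51.1, 53.2 and 53.4 CPM in the PRMT5 knockdown and at 45.5, 35.1 and 35.9 CPM in the MEP50 knockdown. Every knockdown library lay above every control library, and MEP50 replicate 1 stood well above the other two of its group. The log2 change was 1.19 ± 0.0722 (edgeR adjusted p = 8.52e-16) after PRMT5 knockdown and 0.75 ± 0.0753 (edgeR adjusted p = 2.69e-10) after MEP50 knockdown.

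JUNB, a weaker activator that can oppose JUN, behaved differently in the knockdowns. It was at 35.6, 38.0 and 37.9 CPM in the control, 33.9, 32.3 and 32.1 CPM in the PRMT5 knockdown, and 60.5, 74.5 and 70.3 CPM in the MEP50 knockdown. The PRMT5 knockdown libraries lay just below the control and the MEP50 knockdown libraries well above it, without overlap. The log2 change was -0.19 ± 0.0624 (edgeR adjusted p = 0.0123) in the PRMT5 knockdown and 0.88 ± 0.0598 (edgeR adjusted p = 5.15e-16) in the MEP50 knockdown. Under the alternatives tried, the adjusted p of the small JUNB fall ranged from 0.00337 to 0.0458. JUNB overlaps HOOK2 on the opposite strand, and the sources used here do not say whether strand was used in counting. HOOK2 was at 6.96 ± 0.0594 CPM in control cells, 6.73 ± 0.750 with PRMT5 knocked down and 5.59 ± 0.606 with MEP50 knocked down (SD, n = 3). Its log2 change was -0.04 (edgeR adjusted p = 0.798) in the PRMT5 knockdown and -0.32 (edgeR adjusted p = 0.0446) in the MEP50 knockdown. Under the alternatives tried, the adjusted p of the second ranged from 0.023 to 0.152. Whether reads of HOOK2 and JUNB were mixed was not tested.

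JUND, the JUN gene that is expressed steadily in resting cells, was at 96.9, 108 and 104 CPM in the control and 77.0, 74.3 and 71.8 CPM in the PRMT5 knockdown. In the MEP50 knockdown it was at 93.3, 99.4 and 81.7 CPM. The PRMT5 knockdown libraries lay below all others, whereas MEP50 replicate 2 lay above the lowest control library. The log2 change was -0.47 ± 0.0538 (edgeR adjusted p = 4e-08) after PRMT5 knockdown and -0.18 ± 0.0539 (edgeR adjusted p = 0.00744) after MEP50 knockdown. The second call was lost without MEP50 replicate 3, when the log2 change was -0.11 (edgeR adjusted p = 0.0796).

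Per kb of exon, JUND was the most abundant of all 10 genes in every group, at 55.3 ± 3.02, 39.9 ± 1.38 and 49.1 ± 4.82 CPM per kb (SD, n = 3) in the control, PRMT5 knockdown and MEP50 knockdown. The summed JUN family level was 82.2 ± 4.14, 72.7 ± 1.58 and 97.7 ± 5.91 CPM per kb in the same order. JUN supplied 7.90 ± 0.130% of this sum in control cells, 20.4 ± 0.909% with PRMT5 knocked down and 11.3 ± 1.95% with MEP50 knocked down. JUNB supplied 24.9 ± 0.420%, 24.7 ± 0.314% and 38.5 ± 3.63%, and JUND 67.2 ± 0.375%, 54.8 ± 0.713% and 50.2 ± 2.51%. The JUND share was lower in every knockdown library than in the control, and the larger gain was that of JUN with PRMT5 knocked down and that of JUNB with MEP50 knocked down. The exact permutation p was 0.1, the smallest possible, for the JUN and JUND shares in both knockdowns and for JUNB in the MEP50 knockdown, and 0.8 for JUNB in the PRMT5 knockdown. The ratio of JUNB to JUN reads was 1.62 ± 0.0470 in control cells, 0.624 ± 0.0348 with PRMT5 knocked down and 1.81 ± 0.419 with MEP50 knocked down (SD, n = 3). The MEP50 libraries were at 1.33, 2.12 and 1.96, on both sides of the control libraries at 1.67, 1.59 and 1.60. In reads not divided by length, JUNB outnumbered JUN in control cells, and JUN outnumbered JUNB in PRMT5 knockdown cells. Per kb, JUNB stayed above JUN in the PRMT5 knockdown, at 18.0 ± 0.560 against 14.8 ± 0.355 CPM per kb (SD, n = 3).

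**Figure D3:**
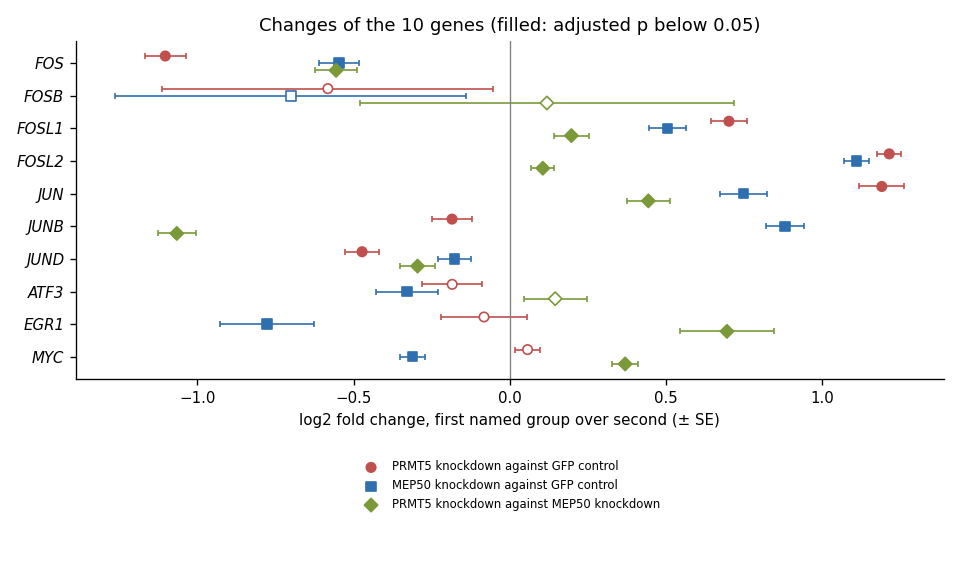
Log2 fold change of each of the 10 genes in the PRMT5 knockdown over control (circles), the MEP50 knockdown over control (squares) and the PRMT5 over the MEP50 knockdown (diamonds), with bars of 1 SE and filled symbols where edgeR's adjusted p was below 0.05. FOSL2 lies at 1.21 and 1.11 against control, FOS lies at -1.10 and -0.55, and JUNB lies at -0.19 and 0.88 on opposite sides of 0.

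ATF3, which can pair with JUN proteins and often acts as a repressor, was at 13.0, 13.0 and 14.6 CPM in the control, 12.5, 11.4 and 11.9 CPM in the PRMT5 knockdown and 11.7, 10.9 and 9.83 CPM in the MEP50 knockdown. The knockdown libraries were all below the lowest control value. The log2 change passed the test in the MEP50 knockdown (-0.33 ± 0.0998, edgeR adjusted p = 0.0053) and not in the PRMT5 knockdown (-0.18 ± 0.096, edgeR adjusted p = 0.108). Compared directly, the knockdowns differed by 0.14 ± 0.1 for ATF3 (edgeR adjusted p = 0.268), which did not pass the test.

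EGR1, the serum-responsive zinc finger gene, was at 7.90, 7.79 and 7.61 CPM in the control and 6.19, 8.0 and 7.70 CPM in the PRMT5 knockdown. It was at 5.99, 3.69 and 4.02 CPM in the MEP50 knockdown, where all libraries lay below those of both other groups. The log2 change was -0.08 ± 0.137 (edgeR adjusted p = 0.647) in the PRMT5 knockdown and -0.78 ± 0.15 (edgeR adjusted p = 2.99e-05) in the MEP50 knockdown. The other EGR genes, EGR2, EGR3 and EGR4, had at most 12 reads in any library and were not tested.

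MYC was at 95.3, 95.0 and 101 CPM in the control and 100, 100 and 102 CPM in the PRMT5 knockdown, with overlapping libraries. It was at 80.4, 78.7 and 76.0 CPM in the MEP50 knockdown, below every other library. The log2 change was 0.06 ± 0.0393 (edgeR adjusted p = 0.24) in the PRMT5 knockdown and -0.31 ± 0.0408 (edgeR adjusted p = 2.19e-08) in the MEP50 knockdown. Per kb, MYC was second only to JUND among the 10 genes in the control (32.4 ± 1.17 CPM per kb) and in the PRMT5 knockdown (33.7 ± 0.423). In the MEP50 knockdown it was the third (26.1 ± 0.738), behind JUNB (37.6 ± 3.94).

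The knockdowns were compared directly in the same fit, since a call in one and not the other does not show a difference. Between PRMT5 and MEP50 knockdown, 8 of the 10 members were called, beside 39.7% of all genes, 5 higher in the PRMT5 knockdown beside 19.2%, 3 lower beside 20.5%, and 1 with at least a 2-fold difference, JUNB, beside 3.19%. The median log2 difference of the 10 genes was 0.13. JUNB was lower in the PRMT5 knockdown by a log2 difference of -1.07 ± 0.0603 (edgeR adjusted p = 6.22e-18), FOS by -0.56 ± 0.0684 (edgeR adjusted p = 1.19e-08) and JUND by -0.30 ± 0.055 (edgeR adjusted p = 0.0001). EGR1 was higher in the PRMT5 knockdown by 0.69 ± 0.15 (edgeR adjusted p = 0.000235), JUN by 0.44 ± 0.0695 (edgeR adjusted p = 3.51e-06) and MYC by 0.37 ± 0.0406 (edgeR adjusted p = 9e-10). The smallest called differences were 0.20 ± 0.0567 for FOSL1 (edgeR adjusted p = 0.00498) and 0.11 ± 0.0368 for FOSL2 (edgeR adjusted p = 0.0204). The FOSL1 call was lost without PRMT5 replicate 3 (0.16, edgeR adjusted p = 0.0501) or MEP50 replicate 2 (0.14, edgeR adjusted p = 0.0686). The FOSL2 call was lost without PRMT5 replicate 2 (0.09, edgeR adjusted p = 0.0882) or MEP50 replicate 2 (0.05, edgeR adjusted p = 0.308).

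The authors' deposited tables of called genes held FOS, FOSL1, FOSL2, JUN, JUNB and JUND for the PRMT5 knockdown and all members but FOSB for the MEP50 knockdown. The directions were those given above, with a log2 fold change from edgeR in the authors' deposited table of -1.10 for FOS and 1.21 for FOSL2 after PRMT5 knockdown and 0.89 for JUNB after MEP50 knockdown.

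Each list below can be read against all genes tested, of which 51.0% were called for PRMT5 knockdown and 51.7% for MEP50 knockdown, with medians of 0.0032 and -0.0019.

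Among 12 other partners that can dimerise with FOS or JUN proteins, 9 were tested, and 1 rose and 3 fell in each knockdown, with median log2 changes of -0.13 and -0.11. JDP2, a JUN-binding repressor, was at 19.7 ± 0.467 CPM in control cells, 24.5 ± 0.561 with PRMT5 knocked down and 39.2 ± 2.45 with MEP50 knocked down (SD, n = 3). It rose by 0.32 ± 0.0692 (edgeR adjusted p = 0.00017) and 1.00 ± 0.0677 (edgeR adjusted p = 4.75e-16). The small MAF protein MAFK went from 121 ± 7.66 CPM to 54.0 ± 0.757 and 48.3 ± 4.13, log2 changes of -1.16 ± 0.0495 (edgeR adjusted p = 1.08e-21) and -1.32 ± 0.0513 (edgeR adjusted p = 4.88e-23). Its relative MAFF fell in the MEP50 knockdown (-1.25 ± 0.176, edgeR adjusted p = 3.8e-07) and was at -0.20 ± 0.155 in the PRMT5 knockdown (edgeR adjusted p = 0.311). ATF2, a JUN partner, fell in the PRMT5 knockdown (-0.39 ± 0.0453, edgeR adjusted p = 1.84e-09) and was at 0.02 ± 0.0451 in the MEP50 knockdown (edgeR adjusted p = 0.801). BATF and MAF had at most 8 reads in any library.

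Among 30 other immediate early genes, 26 were tested, and 11 rose and 11 fell in the PRMT5 knockdown while 12 rose and 10 fell in the MEP50 knockdown. The median log2 changes were -0.0084 and 0.11, with calls in both directions. The largest falls in the PRMT5 knockdown were those of the NR4A orphan nuclear receptors. NR4A1 was at 114 ± 1.11 CPM in control cells, 19.9 ± 1.48 with PRMT5 knocked down and 45.7 ± 1.23 with MEP50 knocked down (SD, n = 3), log2 changes of -2.52 ± 0.0526 (edgeR adjusted p = 5.45e-33) and -1.32 ± 0.0487 (edgeR adjusted p = 1.31e-24). NR4A2 went from 19.8 ± 1.25 CPM to 3.32 ± 0.351 and 10.2 ± 0.925, and NR4A3 from 18.9 ± 1.36 CPM to 3.69 ± 0.447 and 7.51 ± 0.351. Like FOS, all 3 were lower in the PRMT5 knockdown than in the MEP50 knockdown when these were compared directly, by -1.20, -1.63 and -1.02 on the log2 scale (edgeR adjusted p = 2.56e-20, 4.01e-14 and 1.69e-08). IER3, an early gene linked to survival, had log2 changes of -0.49 ± 0.133 with PRMT5 knocked down and -1.16 ± 0.146 with MEP50 knocked down (edgeR adjusted p = 0.00248 and 1.63e-08). KLF2, a Krüppel-like factor, rose by 1.41 ± 0.166 with PRMT5 knocked down (edgeR adjusted p = 2.29e-09), was at 0.22 ± 0.187 with MEP50 knocked down (edgeR adjusted p = 0.333), and differed between the knockdowns by 1.18 ± 0.167 (edgeR adjusted p = 2.17e-07).

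Of 21 kinases and factors upstream of these genes, 7 rose and 7 fell in the PRMT5 knockdown, and 4 rose and 7 fell in the MEP50 knockdown. The median log2 changes were 0.0046 and -0.025. ELK3, a ternary complex factor that pairs with serum response factor, rose from 77.5 ± 2.39 CPM to 108 ± 4.39 and 138 ± 4.09 (SD, n = 3), by 0.48 ± 0.0399 (edgeR adjusted p = 3.09e-13) and 0.83 ± 0.040 (edgeR adjusted p = 7.78e-21). MAP2K1, an ERK-activating kinase, rose by 0.40 ± 0.0517 with PRMT5 knocked down and 0.32 ± 0.0528 with MEP50 knocked down (edgeR adjusted p = 3.46e-08 and 3.68e-06). RPS6KA5, a histone kinase of the early response, rose by 0.29 ± 0.114 and 1.08 ± 0.110 (edgeR adjusted p = 0.0306 and 4.9e-11). MAPKAPK2, a p38 effector kinase, had log2 changes of -0.53 ± 0.0376 and -0.26 ± 0.0377 (edgeR adjusted p = 1.87e-15 and 1.78e-07), and MRTFB, an actin-regulated partner of serum response factor, of -0.30 ± 0.0464 and -0.43 ± 0.0478 (edgeR adjusted p = 6.3e-07 and 5.21e-10). MAPK8, which encodes the JUN kinase JNK1, was at 34.9 ± 0.688 CPM in control cells, 44.4 ± 3.50 with PRMT5 knocked down and 28.1 ± 0.575 with MEP50 knocked down. It differed between the knockdowns by 0.66 ± 0.0622 (edgeR adjusted p = 1.51e-11). In that direct comparison 14 of the 21 were called, beside 39.7% of all genes tested, and 9 of the 21 without PRMT5 replicate 2.

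Of 24 genes often named as AP-1 targets, 16 were tested, with 8 higher and 6 lower in the PRMT5 knockdown and 8 higher and 8 lower in the MEP50 knockdown. The median log2 changes were 0.20 and -0.19. AXL, a receptor tyrosine kinase of invasive cells, rose from 143 ± 4.83 CPM to 350 ± 3.74 and 465 ± 1.82 (SD, n = 3), by 1.29 ± 0.0297 (edgeR adjusted p = 1.19e-31) and 1.70 ± 0.0299 (edgeR adjusted p = 1.52e-35). PLAU, the urokinase protease, rose from 28.3 ± 2.27 CPM to 114 ± 0.326 with PRMT5 knocked down and 55.7 ± 2.42 with MEP50 knocked down, by 2.00 ± 0.0507 (edgeR adjusted p = 2.65e-30) and 0.97 ± 0.0539 (edgeR adjusted p = 8.67e-19). PTGS2, the inducible cyclooxygenase gene, had the list's largest changes, from 413 ± 3.49 CPM to 13.0 ± 1.16 with PRMT5 knocked down (log2 change -5.00 ± 0.0706, edgeR adjusted p = 4.02e-18) and to 51.4 ± 6.26 with MEP50 knocked down (-3.0 ± 0.0601, edgeR adjusted p = 4.05e-16). The cytokine gene CXCL8 fell in the MEP50 knockdown by 2.12 ± 0.272 on the log2 scale (edgeR adjusted p = 1.51e-08), from 3.64 ± 0.470 to 0.875 ± 0.444 CPM, and was at 2.76 ± 0.587 CPM with PRMT5 knocked down (-0.40 ± 0.219, edgeR adjusted p = 0.124). The matrix metalloproteinase genes MMP1, MMP2, MMP3, MMP9, MMP10 and MMP13, with IL6 and LOX, had at most 12 reads in any library and were not tested.

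For MYC, partners and regulators of MYC and EGR factors gave 15 tested genes of 16, with 8 higher and 3 lower in the PRMT5 knockdown and 4 higher and 3 lower in the MEP50 knockdown. The median log2 changes were 0.18 and 0.056. MXD4, a MAX-binding repressor that competes with MYC, was at 9.34 ± 0.967 CPM in control cells, 16.8 ± 0.812 with PRMT5 knocked down and 19.4 ± 1.70 with MEP50 knocked down (SD, n = 3). It rose by 0.84 ± 0.0948 (edgeR adjusted p = 8.47e-10) and 1.05 ± 0.0954 (edgeR adjusted p = 2.37e-12). Its relative MXD3 rose by 0.46 ± 0.140 and 0.84 ± 0.140 (edgeR adjusted p = 0.00568 and 2.95e-06), and the repressor MNT had log2 changes of -0.49 ± 0.0822 and -0.23 ± 0.0827 (edgeR adjusted p = 3.3e-06 and 0.017). MXI1 passed the test with PRMT5 knocked down (-0.47 ± 0.0931, edgeR adjusted p = 0.000118) and was at -0.21 with MEP50 knocked down (edgeR adjusted p = 0.069), and MXD1 passed it with MEP50 knocked down (-0.82 ± 0.158, edgeR adjusted p = 3.04e-05) and was at -0.08 with PRMT5 knocked down (edgeR adjusted p = 0.694).

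Among 26 genes often named as MYC targets, 24 were tested, with 17 higher and 1 lower in the PRMT5 knockdown, and 11 higher and 7 lower in the MEP50 knockdown. Their median log2 changes were 0.14 and 0.065. CDK4, a cell cycle kinase, rose by 0.47 ± 0.0382 with PRMT5 knocked down (edgeR adjusted p = 1.24e-13) and by 0.34 ± 0.0389 with MEP50 knocked down (edgeR adjusted p = 8.3e-10). FBL, the nucleolar methyltransferase fibrillarin, rose by 0.35 ± 0.0304 and 0.38 ± 0.0306 (edgeR adjusted p = 5.56e-13 and 6.8e-14), and IMPDH2, of guanine nucleotide synthesis, by 0.41 ± 0.0338 and 0.53 ± 0.0339 (edgeR adjusted p = 4.17e-13 and 3.24e-16). ODC1, the first enzyme of polyamine synthesis, was at 203 ± 5.18 CPM in control cells, 219 ± 6.0 with PRMT5 knocked down and 140 ± 9.67 with MEP50 knocked down. NOP58, of the small nucleolar ribonucleoproteins, was at 172 ± 2.45, 194 ± 4.81 and 119 ± 4.13 CPM in the same order (SD, n = 3). Both were called higher in the PRMT5 knockdown, by 0.11 and 0.17 on the log2 scale (edgeR adjusted p = 0.00819 and 3.33e-05). In the MEP50 knockdown both were called lower, by 0.53 and 0.54 (edgeR adjusted p = 4.06e-15 and 6.31e-17). TERT, the telomerase subunit, fell from 2.08 ± 0.605 to 1.35 ± 0.290 CPM there (log2 change -0.65 ± 0.254, edgeR adjusted p = 0.0304), and the call was lost without control replicate 2 (-0.38, edgeR adjusted p = 0.278), without MEP50 replicate 1 or 3 (edgeR adjusted p = 0.0522 and 0.157) and with DESeq2 (adjusted p = 0.059).

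**Figure D4:**
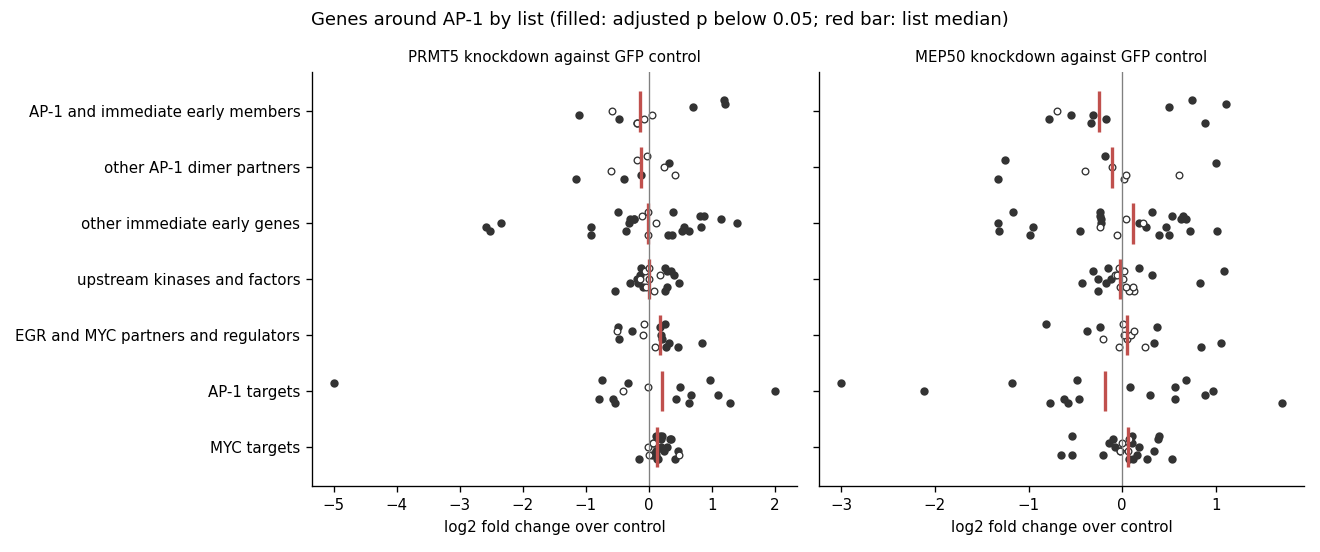
Log2 fold change over the GFP control (horizontal axis) of every tested gene in the list of 10 members and in 6 related lists, for the PRMT5 knockdown (left) and the MEP50 knockdown (right). Filled points had an adjusted p below 0.05 and the red bar is the list median, and the MYC targets lie mostly to the right in the PRMT5 knockdown (17 higher, 1 lower).

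For the 3 members with at least a 2-fold change, the genes with the most similar level across all 9 libraries were sought among 10615 genes whose mean reached 5 CPM. Likeness was the Euclidean distance between log2 CPM profiles, each centred on its own mean, so that a smaller value is a closer match. Closest to FOS were RNFT1 (0.135), ARID5B (0.168) and DKK1 (0.206), and DKK1, a secreted inhibitor of WNT signalling, went from 934 ± 19.0 CPM to 423 ± 17.5 and 658 ± 11.3 (SD, n = 3). ARID5B, a DNA-binding cofactor of a histone demethylase, was at 66.5 ± 2.56, 30.7 ± 1.24 and 44.8 ± 1.99 CPM. Closest to FOSL2 were MORC4 (0.171), ALPK2 (0.173) and PLOD2 (0.188). PLOD2, a lysyl hydroxylase of collagen, rose from 159 ± 3.35 CPM to 352 ± 9.23 and 325 ± 9.03. Closest to JUN were BMP2K (0.318), JAG1 (0.333) and TMEM167A (0.337). JAG1, a ligand of NOTCH receptors, was at 147 ± 1.95, 332 ± 5.70 and 231 ± 2.46 CPM. These matches describe 9 libraries in 3 groups, where many genes follow the group means.

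**Figure D5:**
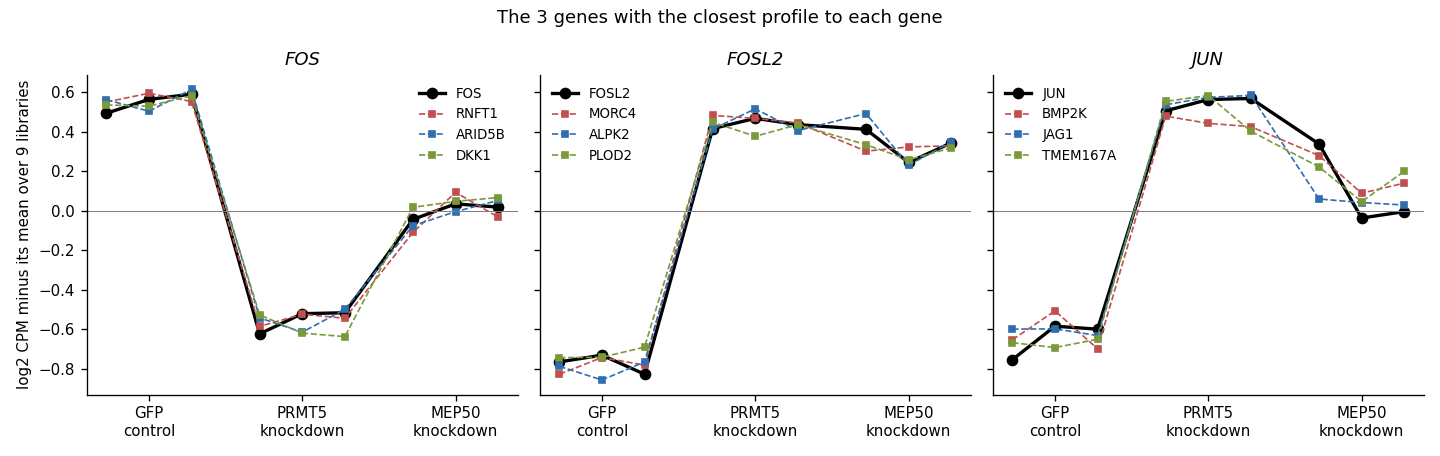
Log2 CPM of FOS, FOSL2 and JUN and of the 3 genes with the closest profile to each, centred on the mean over the 9 libraries, which lie along the horizontal axis by group and replicate. The matched genes follow FOS and FOSL2 within distances of 0.135 to 0.206, and JUN less closely at 0.318 to 0.337.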

How the data were processed

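RNA was sequenced from 9 libraries of A549 cells after ribosomal RNA depletion with a stranded protocol, per the labels' protocols. The deposited table gives raw read counts for each Ensembl gene identifier. Per the submitters' processing notes, Trim Galore, STAR and HTSeq were used on hg19. No source used here gives the strand setting or the tool versions. The authors' deposited comparison tables held log2 fold changes, their standard errors, a test statistic score, and adjusted p-values of DESeq2 and edgeR.

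Libraries were grouped by their labels. The members, the other gene lists, the tests and the naming rule were chosen with earlier results of these data known. Named were all members, both target genes, from each other list up to 3 called genes per comparison with the largest changes at a mean of 1 CPM or more, and the 3 closest profiles of members changed at least 2-fold. Genes too low to test, genes that overlap members and genes in the closing section were named outside this rule, after their values were seen. HTSeq's summary lines were left out of library sizes. Gene names matched 44822 identifiers. BOP1 and PECAM1 were not matched and were not analysed here. Exon lengths were from GENCODE and promoter windows from RefSeq.

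All 9 libraries entered a single fit in edgeR 4.0.16 (R 4.3.3), with group as the term, TMM scaling, filterByExpr, robust quasi-likelihood F tests and a Benjamini-Hochberg threshold of 0.05 over 14582 genes. Levels are TMM-scaled CPM. The SE was obtained by dividing the log2 change by the root of its F statistic. The biological coefficient of variation was 0.0395. Profiles used log2 CPM with a prior count of 2. The fit was also run on simulated counts with the same spread for all genes and changes in a small part of them. That run checks the code and does not resemble these data, where many genes were called. Alternatives were other scalings, other filters on low counts, DESeq2 1.42.0, the replicate block, removal of small RNA genes and each replicate left out. The p-values set a group difference against the variation between these libraries. Culture details beyond biological replicates are not given, so whether that variation includes separate infections or hairpins is not known.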

Additional observations from a re-analysis of the deposited data

Results flagged for a closer look

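The response to knockdown differed between PRMT5 and MEP50 for 8 of the 10 genes by the direct edgeR comparison of the knockdowns, each with 3 libraries. In that comparison 39.7% of all genes tested were called, and 6 to 8 members were called with a replicate left out. The log2 fold change of the PRMT5 over the MEP50 knockdown was -1.07 for JUNB, -0.56 for FOS and -0.30 for JUND. It was 0.69 for EGR1, 0.44 for JUN and 0.37 for MYC. FOSL1 at 0.20 and FOSL2 at 0.11 rose in both knockdowns, and their difference was lost when single libraries were left out. JUNB is the member whose called changes against the control had opposite signs. Groups of 3 libraries were not tested for single libraries that stand apart.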

How the results depend on the processing

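Over all genes, 7433 were called in the PRMT5 knockdown, 7540 in the MEP50 knockdown and 5787 between the knockdowns. DESeq2 called 6862, 7063 and 5334, and leaving out each replicate gave 6677 to 7636, 6885 to 7626 and 4962 to 5707. Members called numbered 6, 8 to 9, and 6 to 8 with a replicate left out. With the replicate number as a block, 7423, 7549 and 5759 genes and 6, 9 and 8 members were called. Same-numbered libraries correlated at -0.067 to 0.097, and not every library correlated best with its own number, so the numbers were not taken to pair the samples. The log2 changes that changed sign were not called. With a replicate left out, the log2 change of EGR1 in the PRMT5 knockdown ranged from -0.16 to 0.0034 (without PRMT5 replicate 1). That of HOOK2 ranged from -0.14 to 0.0068 (without PRMT5 replicate 1). FOSB between the knockdowns ranged from -0.41 (without PRMT5 replicate 1; -0.32 without MEP50 replicate 1) to 0.45. The FOSL1 share differences turned to -0.602 and -2.38 percentage points when reads were not divided by length. The JUNB share difference in the PRMT5 knockdown, -0.117 percentage points, ranged from -0.342 to 0.0729, the latter without control replicate 1, and was 0.0369 without PRMT5 replicate 2. Other scalings and filters moved no member across the threshold. FOSB had 1 to 15 reads per library and an SE of 0.53 or more. Its log2 changes of -0.58 and -0.70 against the control exceeded their SE and were not called, so changes of that size can be missed at this depth.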

Other observations

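Some early-response genes and AP-1 targets outside the 10 were chosen here after their values were seen, of which KLF4, SIK1 and IL11 were called in opposite directions in the knockdowns. KLF4, a Krüppel-like factor, was at 13.5 ± 1.35 CPM in control cells, 11 ± 1.25 with PRMT5 knocked down and 21.7 ± 1.48 with MEP50 knocked down (SD, n = 3). SIK1, a salt-inducible kinase, was at 196 ± 6.21, 104 ± 2.32 and 233 ± 1.41 CPM in the same order. The log2 difference of the PRMT5 over the MEP50 knockdown was -0.98 ± 0.0952 for KLF4 (edgeR adjusted p = 3.7e-11) and -1.16 ± 0.033 for SIK1 (edgeR adjusted p = 1.35e-27). The interleukin gene IL11, an AP-1 target, was at 10.7 ± 0.572, 16.6 ± 1.01 and 7.17 ± 1.70 CPM, and HBEGF, an EGF receptor ligand that is also an AP-1 target and was called lower in both knockdowns, at 10.4 ± 0.0681, 8.21 ± 0.772 and 4.53 ± 0.684 CPM. BTG2, an antiproliferative early gene, rose in both knockdowns, from 29 ± 3.29 to 45.1 ± 1.16 and 58.5 ± 0.726 CPM. The authors' deposited table of each comparison also held 1 row that names no gene, the HTSeq line for reads on no annotated feature.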
